A study of Mus musculus with 8 samples.

Results

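The Slc9 sodium-proton exchangers and their PDZ scaffolds were examined in enamel organs of mouse first molars at the secretory and the maturation stage. The members were taken by gene name from the deposited table of read counts. They were the plasma membrane exchangers Slc9a2, Slc9a3 and Slc9a5, the organelle exchangers Slc9a7, Slc9a8 and Slc9a9, and the scaffolds Slc9a3r1 and Slc9a3r2. These are 8 of the 54532 genes in the table and 8 of the 14 whose symbol begins with Slc9. The study compared postnatal day 5 (P5, secretory stage) with day 12 (P12, maturation stage) to find K+ transporters of maturation ameloblasts. All animals were untreated C57BL/6 mice of the wt genotype, so that both groups shared strain and genotype and differed in age. First molars were cleared of the soft tissue of the pulp chamber and, by the labels, the remaining molars were homogenized, with enamel organs of several pups pooled for each library. There were 4 pools at each age, numbered 1, 3, 4 and 5 at P5 and 1 to 4 at P12 in the sample labels. Libraries were made from polyadenylated RNA. Whether pools of an age came from separate litters is not given, so p-values measure the spread between these pools.

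Proteins of the SLC9 family, also called NHE, exchange Na+ for H+ across membranes, and most work in the direction that the Na+ gradient drives. Some members sit in the plasma membrane, where they lower the acid load of the cytosol, and others sit in the Golgi and in endosomes, where they help to set luminal pH. Scaffolds of the NHERF type carry PDZ domains, which hold transporters such as NHE3 and CFTR in complexes, and a tail that binds ezrin and its relatives at the cell cortex. Crystal growth in enamel releases protons, and maturation ameloblasts are known for buffering the enamel fluid with bicarbonate. Handling of acid by these cells is therefore a recurring subject of enamel biology.

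Depth was similar at both ages, with totals of 16574548 to 20262601 counts at P5 and 17588152 to 22013456 at P12. The floor of 3 counts, which covers counting error only, corresponded to 0.136 to 0.181 CPM (counts scaled to a library of a fixed size). Normalized counts are counts over the TMM-corrected library size, brought back to the mean size. The ages were compared with the quasi-likelihood test of edgeR, and adjusted p-values (Benjamini-Hochberg) cover the 16440 genes left after its low-count filter. Secretory ameloblast markers (Amelx, Ambn, Enam and Mmp20) were lower at P12 in 4 of 4 genes, and maturation markers (Klk4, Amtn, Odam, Slc24a4 and Wdr72) were higher in 5 of 5. Markers of other cells were also present, and no gene of these lists was at 0 in all libraries. Some took many counts. Mean normalized counts at P5 and P12 were 620261 and 488824 for Col1a1 and 158556 and 167051 for Dspp. Odam, the highest maturation marker, was at 340036 at P12. Others were rare, such as Myog at 6.72 and 1.69. Marker genes of oral mucosa, mainly keratins of stratified epithelium, were higher at P12 in 6 of 6 genes. Endothelium was higher in 4 of 4 genes, osteoclast in 4 of 4 and macrophage in 3 of 4. Of 4 genes each, mesenchyme had 1 higher and 2 lower, odontoblast and bone 1 and 1, Schwann cell 2 and 1, erythroid 0 and 2, and skeletal muscle 0 and 2. In such bulk samples, fewer cells of a type and less RNA per cell cannot be told apart. The libraries P5 replicate 5 and P12 replicate 4 stood apart. Pairs with P12 replicate 4 differed by a chi-square per degree of freedom of 31.6 to 74.6, against 8.58 to 18.9 for the other P12 pairs, and pairs with P5 replicate 5 by 17.1 to 18.5, against 4.76 to 5.89. Without both of these libraries, the same 4 members were called higher at P12 as with them.

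Of the 8 members, 4 were higher at P12 (Slc9a3r1, Slc9a3r2, Slc9a5 and Slc9a2), 0 were lower, 3 did not pass the test (Slc9a7, Slc9a8 and Slc9a9), and Slc9a3 was too low for the filter. Both scaffolds rose, while the organelle exchangers gave 0 calls in edgeR, DESeq2 and limma-voom, also at an unadjusted p under 0.05. Among all genes tested, 57.2% differed between the ages, 28.8% being higher (4735 genes) and 28.4% lower (4676) at P12. Scaling by total count alone gave 8885 higher and 2330 lower. The members' share of calls in either direction, 4 of the 7 tested, was thus near that background. The median log2 fold change of those 7 was 0.56, beside 0.01 over all genes tested. Slc9a2 was over the filter's limit in 4 of 4 libraries at P12 and in 2 of 4 at P5, so it entered the test mainly through the age at which it was high. Leaving it out, 3 of 6 tested members were higher, with a median of 0.44. The count of lower members was also 0 at an unadjusted p under 0.05 in edgeR, DESeq2 or limma-voom. The normalized counts of the ages did not overlap for 3 of the 7 tested members, against 52.5% of all genes tested. These were both scaffolds and Slc9a2, which entered the test mainly through P12. Slc9a3 did not overlap either, but it did not pass the filter and is not part of that share.

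**Figure D1:**
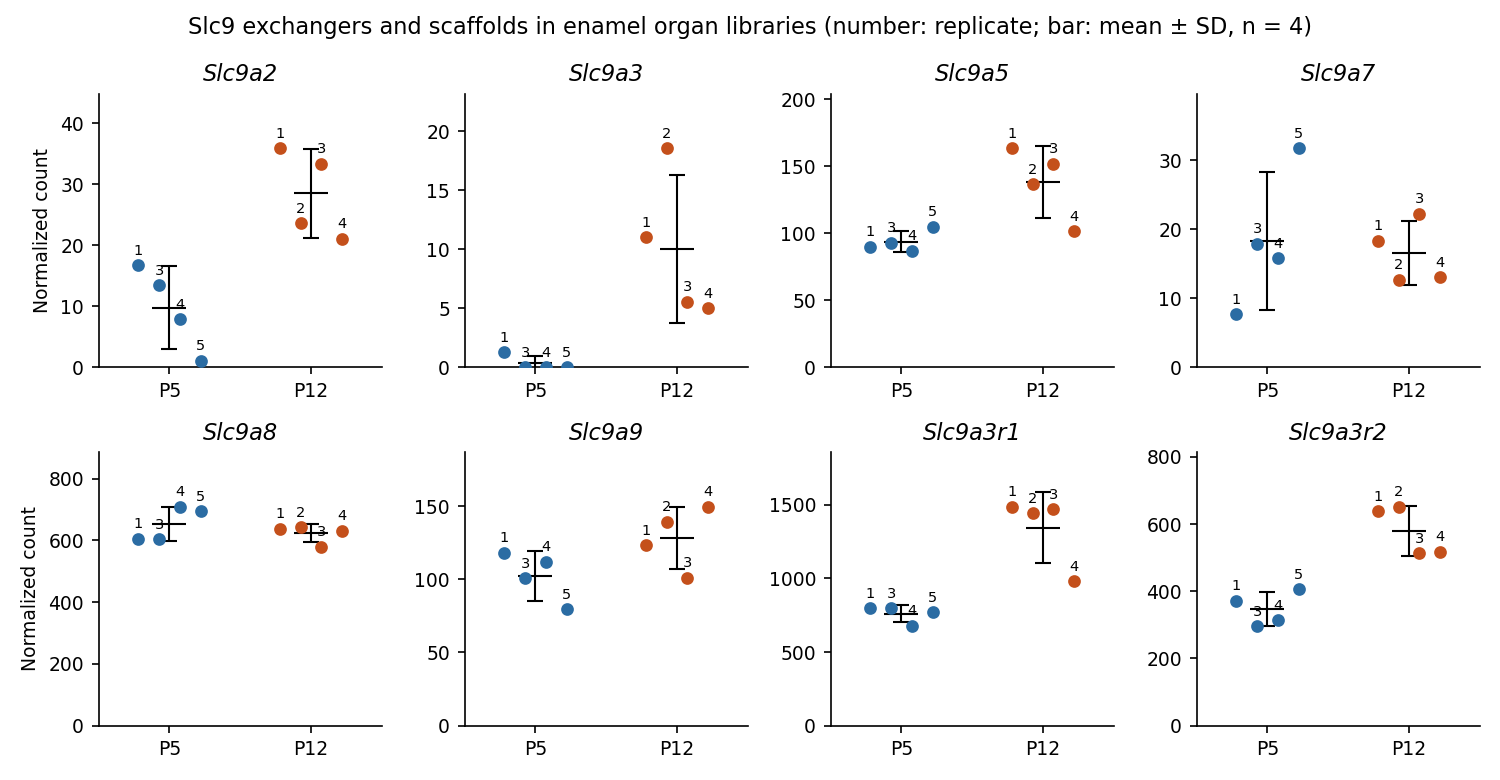
Normalized counts of the 8 members in each library, with P5 in blue and P12 in orange, the replicate number above each point, and the mean ± SD of 4 libraries as bars. The scaffolds, Slc9a2 and Slc9a3 have all P12 points above all P5 points, and P12 replicate 4 lies below the other P12 points of Slc9a3r1 (983 against 1443 to 1488).

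Slc9a3r1 encodes NHERF1, the scaffold first named for its part in the regulation of NHE3. The gene (ENSMUSG00000020733) spans 115163341 to 115181181 on the forward strand of chromosome 11 (GRCm38), with no exonic bases shared with another gene (0%). Its normalized counts were 798, 798, 679 and 772 in P5 replicates 1, 3, 4 and 5. At P12 they were 1488, 1443, 1471 and 983 in replicates 1 to 4. The ages did not overlap, and replicate 4 was the lowest at P12. From a P5 mean of 762 ± 56.7 (SD, n = 4), the gene rose 1.77-fold to 1346 ± 243 (SD, n = 4). On the log2 scale the change was 0.82, with a standard error of 0.12, a 95% interval of 0.55 to 1.09 and an adjusted p of 1.7e-04 (edgeR). An exact permutation test of the log2 counts gave a two-sided p of 0.0286, the smallest possible for 4 libraries at each age. This and the permutation p-values of the other members are unadjusted. After Benjamini-Hochberg adjustment over the 8 members, the permutation test gave 0.0571 for Slc9a3r1, Slc9a3r2, Slc9a2 and Slc9a3. It gave 0.0914 for Slc9a5, and no member was under 0.05 by that test. With 0.0286 as the smallest p, no member could get under 0.05 by its own change alone, however clear. The adjusted value depends on how many members reach that p. In P12 replicate 4 the level was 1.29 times the P5 mean, against 1.93 times over the other P12 libraries. With it left out, the rise was 0.94 on the log2 scale. Oral mucosa markers also moved with this library. Their summed normalized count was 12149 in P12 replicate 4, 39255 to 60203 in the other P12 libraries and 838 to 1616 at P5. Most of that sum in replicate 4 was Krt6a, at 8936. Krt6b (1598) and Krt24 (767) were also above P5 there. Krt4, at 276, lay within its P5 range of 183 to 348. Krt13 and Sprr3, at 510 and 62.2, were little above their highest P5 values of 453 and 59.3. Sums of osteoclast, macrophage, mesenchyme, odontoblast and bone, Schwann cell and erythroid markers were also lowest at P12 in replicate 4. Those of endothelium and of both ameloblast stages were highest at P12 in that library. The part of these cells in the rise of Slc9a3r1 was not tested.

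Slc9a3r2 encodes NHERF2, the close relative of NHERF1. The gene (ENSMUSG00000002504) lies on chromosome 17 from 24639282 to 24650305 on the reverse strand, and shares no exonic bases with another gene (0%). At P5 the normalized counts were 372, 295, 314 and 405 in replicates 1, 3, 4 and 5, and at P12 they were 638, 651, 512 and 517 in replicates 1 to 4. The ages did not overlap, and the P12 libraries fell into a higher pair, replicates 1 and 2, and a lower pair. Slc9a3r2 rose by 0.74 on the log2 scale, with a standard error of 0.12, a 95% interval of 0.48 to 1.01 and an adjusted p of 3.0e-04 (edgeR), from 346 ± 51.0 (SD, n = 4) to 580 ± 75.2 (SD, n = 4). The exact permutation p was 0.0286, the smallest possible. Markers of endothelium rose over the same interval in 4 of 4 genes, from a summed normalized count of 2093 to 2496 at P5 to 4055 to 4394 at P12. That sum was highest at P12 in replicate 4. Slc9a3r2 was higher in P12 replicates 1 and 2 than in replicates 3 and 4. So were summed markers of oral mucosa, osteoclasts, macrophages, mesenchyme, Schwann cells and erythroid cells, with 6416 and 8005 against 5018 and 3213 for osteoclasts. The part of these cells in the change of Slc9a3r2 was not tested.

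The changes of the scaffolds were compared by their ratio within each library. The log2 ratio of Slc9a3r1 to Slc9a3r2 was 1.10, 1.43, 1.11 and 0.93 in P5 replicates 1, 3, 4 and 5 and 1.22, 1.15, 1.52 and 0.93 in P12 replicates 1 to 4. The ratio overlapped between the ages, at 1.14 ± 0.21 (SD, n = 4) and 1.20 ± 0.25 (SD, n = 4). Its difference of 0.06 was within the spread between libraries (exact permutation test, two-sided p = 0.657). With 4 pools at each age, this does not show that the ratio was the same.

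**Figure D2:**
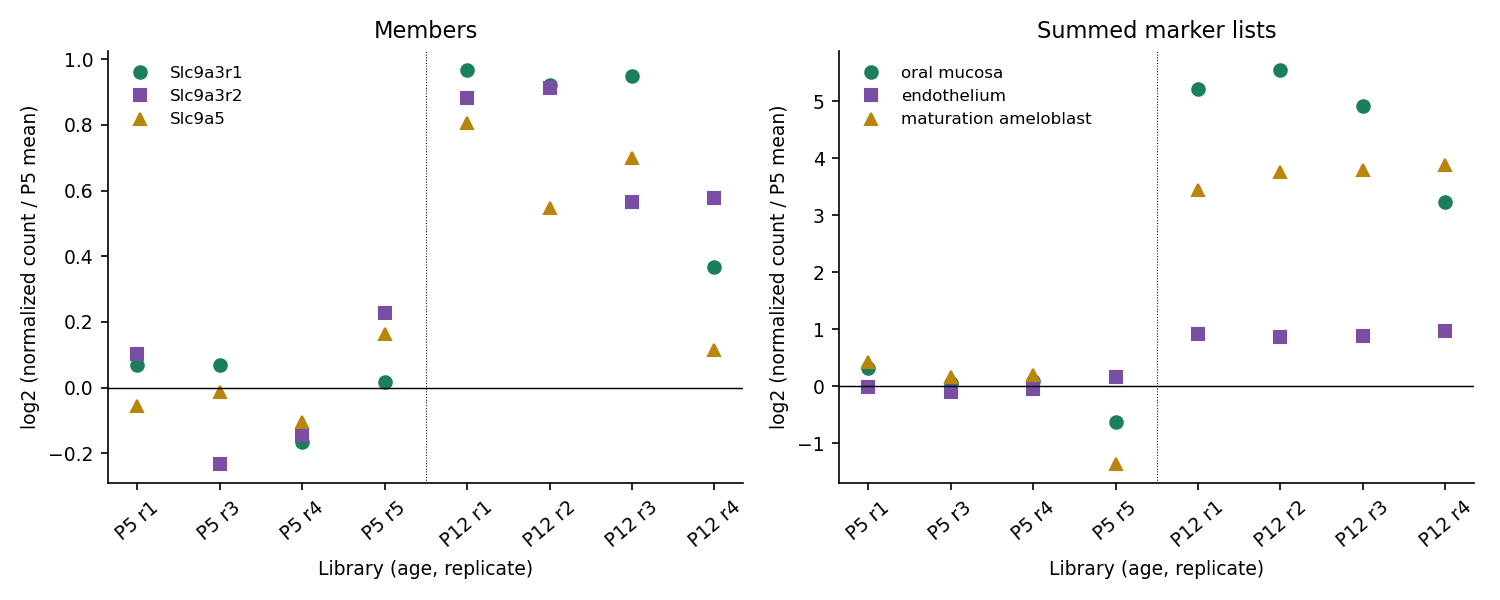
Left, log2 of the normalized count over the P5 mean for Slc9a3r1, Slc9a3r2 and Slc9a5 in each library (r, replicate); right, the same for the summed marker lists of oral mucosa, endothelium and maturation ameloblast. In P12 replicate 4, Slc9a3r1 stands at 0.37 and Slc9a5 at 0.11. The oral mucosa sum, mostly Krt6a in that library, is at 3.23 against 4.92 to 5.54 in the other P12 libraries. The endothelium sum is at 0.97 in P12 replicate 4.

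The promoters of both scaffolds and of Slc9a3 are shown because these genes had all P12 libraries above all P5 libraries, as did Slc9a2, which has no entry in the promoter table used here. The sequences are RefSeq windows on GRCm38.p6, from 250 bases before to 50 after a start site, written 5′ to 3′ along the gene, and 7 of the 8 members had an entry. Capitals mark GGGCGG or its reverse complement CCGCCC, the core of the GC box, which was found in 35.9% of the 32544 distinct mouse promoter windows.
Slc9a3r1, chr11:115163091-115163390, forward strand: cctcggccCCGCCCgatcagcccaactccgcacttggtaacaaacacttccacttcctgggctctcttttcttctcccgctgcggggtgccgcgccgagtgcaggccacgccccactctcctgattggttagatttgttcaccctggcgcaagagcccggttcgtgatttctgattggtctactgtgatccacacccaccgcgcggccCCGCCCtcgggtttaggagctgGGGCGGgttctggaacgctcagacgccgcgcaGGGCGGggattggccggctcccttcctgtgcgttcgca
Slc9a3r2, chr17:24650256-24650555, reverse strand: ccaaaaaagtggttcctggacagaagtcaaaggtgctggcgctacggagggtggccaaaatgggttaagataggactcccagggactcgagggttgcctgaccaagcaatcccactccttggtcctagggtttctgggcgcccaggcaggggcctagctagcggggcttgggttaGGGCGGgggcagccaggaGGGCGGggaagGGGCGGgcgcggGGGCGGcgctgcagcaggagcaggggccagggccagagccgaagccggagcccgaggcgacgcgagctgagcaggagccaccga
Slc9a3, chr13:74121163-74121462, forward strand: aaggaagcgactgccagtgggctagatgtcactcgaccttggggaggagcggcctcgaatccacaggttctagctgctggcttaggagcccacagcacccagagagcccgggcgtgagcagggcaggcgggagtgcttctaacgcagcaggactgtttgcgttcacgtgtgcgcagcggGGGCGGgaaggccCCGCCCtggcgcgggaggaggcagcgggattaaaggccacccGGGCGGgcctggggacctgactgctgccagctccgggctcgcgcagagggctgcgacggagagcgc

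The windows of Slc9a3r1 and Slc9a3r2 each held 4 matches and that of Slc9a3 held 3. The same motif was in the windows of Slc9a5 (2 matches), Slc9a7 (3) and Slc9a8 (2), of which only Slc9a5 rose in edgeR, and had no match in that of Slc9a9. RefSeq gives Slc9a3r2 another start site, and its window had no match (0). The Slc9a3r1 window also held CCAAT or its reverse complement ATTGG 3 times, which occurs in 37.4% of all windows and in no other window of these genes. TATAAA was in none of the members' windows and in 13.6% of all windows. The GC content was 64.3% for Slc9a3r1, 67.3% for Slc9a3r2 and 68.7% for Slc9a3, against a median of 53% over all windows. It was lowest among the members' windows for Slc9a9, at 43.7%. These matches are descriptions of letters and not sites of binding.

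Of the plasma membrane exchangers, Slc9a5 (NHE5), best known from neurons, had the highest level per kilobase. The gene (ENSMUSG00000014786) lies on chromosome 8 from 105348843 to 105369881 on the forward strand and shares no exonic bases (0%). Its normalized counts were 90.0, 92.8, 87.0 and 105 in P5 replicates 1, 3, 4 and 5, and 163, 137, 152 and 101 in P12 replicates 1 to 4. The first 3 P12 libraries were above the P5 range, and replicate 4 lay within it. Slc9a5 rose by 0.56 on the log2 scale, with a standard error of 0.17, a 95% interval of 0.20 to 0.93 and an adjusted p of 0.013 (edgeR), from 93.6 ± 7.80 (SD, n = 4) to 138 ± 27.0 (SD, n = 4). The exact permutation test gave p = 0.0571. Without P12 replicate 4 the log2 fold change was 0.68 (adjusted p = 0.0013). The lower sums of oral mucosa and of the other lists lowest in that library, as named for Slc9a3r1, stand beside this gene too. The part of those cells was not tested.

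Slc9a2 (NHE2), an exchanger of epithelia such as stomach and gut, was rare. The gene (ENSMUSG00000026062) lies on chromosome 1 from 40680574 to 40769273 on the forward strand and shares no exonic bases (0%). Its counts before normalization were 13, 12, 6 and 1 in P5 replicates 1, 3, 4 and 5, and 49, 28, 36 and 21 in P12 replicates 1 to 4. The ages did not overlap after normalization either, at 21.1 to 35.9 against 1.06 to 16.7. The mean rose from 9.77 ± 6.85 (SD, n = 4) to 28.5 ± 7.25 (SD, n = 4). On the log2 scale the rise was 1.56, with a standard error of 0.49, a 95% interval of 0.49 to 2.64 and an adjusted p of 0.017 (edgeR). The exact permutation p was 0.0286, the smallest possible. The gene passed the filter through its P12 libraries, since 4 of 4 were over the limit of 0.536 CPM there and 2 of 4 at P5. Without P5 replicate 5, the lowest library, the log2 fold change was 1.16, and without P5 replicate 4 the adjusted p was 0.051.

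Slc9a3 (NHE3), the apical exchanger of kidney proximal tubule and intestine, was close to the floor. The gene (ENSMUSG00000036123) lies on chromosome 13 from 74121457 to 74169442 on the forward strand and shares no exonic bases (0%). It had 1, 0, 0 and 0 counts in P5 replicates 1, 3, 4 and 5 and 15, 22, 6 and 5 counts in P12 replicates 1 to 4. Every P12 library thus held more counts than any P5 library, and P12 replicates 3 and 4 were the lower ones. Normalized counts at P12 fell in the order of replicates 2, 1, 3 and 4. Summed markers of oral mucosa, osteoclasts, macrophages, Schwann cells and erythroid cells fell in the same order, and the part of those cells was not tested. The summed counts, 48 against 1, gave a ratio of 35.0 after scaling, with an exact 95% counting interval of 6.00 to 1412. That interval covers counting error only and leaves out the spread between pools. The exact permutation p was 0.0286, the smallest possible. Slc9a3 was not tested in the filtered table. Without the filter its adjusted p was 4.0e-04 in edgeR and 4.9e-04 in DESeq2.

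**Figure D3:**
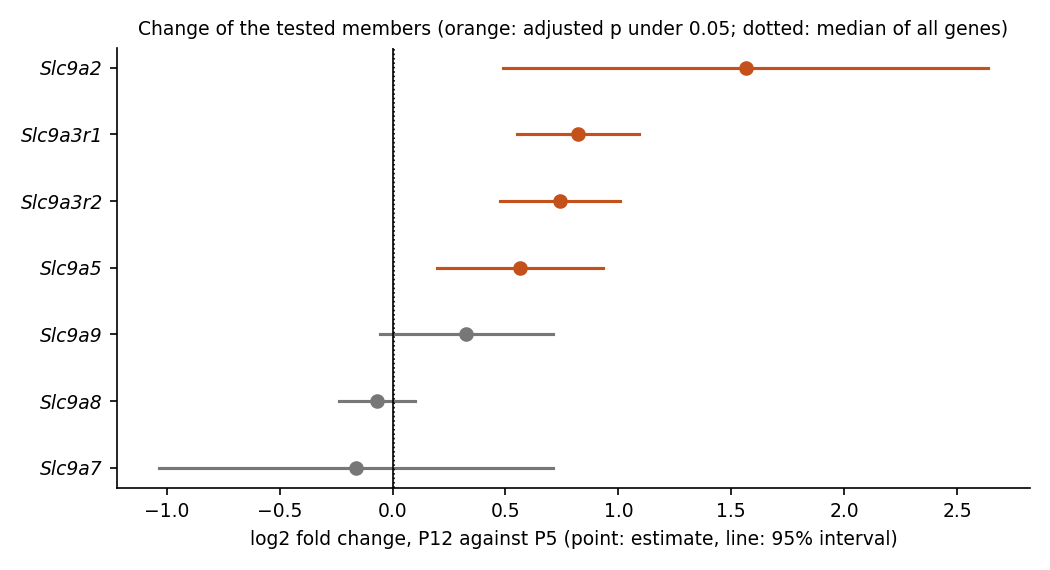
Log2 fold change between P12 and P5 for the 7 members that passed the filter, with 95% intervals from edgeR, orange where the adjusted p was under 0.05 and grey otherwise. The intervals of Slc9a2, Slc9a3r1, Slc9a3r2 and Slc9a5 lie above 0, that of Slc9a8 runs from -0.24 to 0.10, and that of Slc9a7 from -1.04 to 0.71.

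The organelle exchangers did not pass the test. Slc9a8 (NHE8), an exchanger of the Golgi that also reaches the apical membrane of some epithelia, lies on chromosome 2 from 167421712 to 167477000 on the forward strand (ENSMUSG00000039463). Its normalized counts were 605, 605, 709 and 694 in P5 replicates 1, 3, 4 and 5 and 638, 643, 580 and 632 in P12 replicates 1 to 4. The ages overlapped, and the spread was small in both. Means were 653 ± 56.1 (SD, n = 4) and 623 ± 29.1 (SD, n = 4). Slc9a8 thus had a log2 fold change of -0.07, with a standard error of 0.08, a 95% interval of -0.24 to 0.10 and an adjusted p of 0.46 (edgeR). The exact permutation p was 0.400. Scaling by total count alone put Slc9a8 at 0.31 (adjusted p = 0.0056), but that scaling moved the median of all genes by 0.37, and Slc9a8 then lay at -0.07 relative to it.

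Slc9a9 (NHE9), an exchanger of late and recycling endosomes, lies on chromosome 9 from 94669909 to 95230445 on the forward strand (ENSMUSG00000031129). Its normalized counts were 118, 101, 112 and 79.4 in P5 replicates 1, 3, 4 and 5 and 123, 139, 101 and 150 in P12 replicates 1 to 4. P12 replicates 1, 2 and 4 were above the P5 range, and replicate 3 lay within it. Means were 103 ± 17.1 (SD, n = 4) and 128 ± 21.2 (SD, n = 4). For this gene the log2 fold change was 0.33, with a standard error of 0.17, a 95% interval of -0.06 to 0.71 and an adjusted p of 0.13 (edgeR), and the exact permutation p was 0.114. Total count scaling gave 0.70 (adjusted p = 0.0037), or 0.32 relative to the all-gene median.

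Slc9a7 (NHE7), an exchanger of the trans-Golgi network, lies on chromosome X from 20105754 to 20291807 on the reverse strand (ENSMUSG00000037341). Its counts before normalization were 6, 16, 12 and 30 in P5 replicates 1, 3, 4 and 5 and 25, 15, 24 and 13 in P12 replicates 1 to 4. P5 held both the lowest and the highest library, so the ages overlapped. A log2 fold change of -0.16 had a standard error of 0.40, a 95% interval of -1.04 to 0.71 and an adjusted p of 0.75 (edgeR), and the exact permutation p was 0.971. The test does not tell apart changes within that interval. None of these organelle exchangers shares exonic bases with another gene (0%).

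Per kilobase of gene length, Slc9a3r1 had the highest level of the members at both ages, with 396 ± 29.4 (SD, n = 4) normalized counts per kilobase at P5 and 699 ± 126 (SD, n = 4) at P12. Slc9a3r2 came next, at 153 ± 22.6 (SD, n = 4) and 257 ± 33.3 (SD, n = 4), and was above the exchangers in all libraries. The highest member exchanger was Slc9a8, at 71.8 ± 6.17 (SD, n = 4) and 68.5 ± 3.20 (SD, n = 4). The ranges of these neighbours did not overlap at either age. Slc9a9 and Slc9a5 followed, at 18.1 and 17.9 at P5 and at 22.6 and 26.4 at P12, and their order was not beyond the spread at either age. Slc9a7 and Slc9a2 also overlapped, at 4.79 and 1.40 at P5 and at 4.34 and 4.08 at P12, and Slc9a3 was last at both ages, with 1.82 at P12. Slc9a3 and Slc9a2 overlapped in range at both ages. Of the summed level of the 6 member exchangers per kilobase, Slc9a8 took 61.0% to 65.2% at P5 and 52.0% to 56.7% at P12. The sum itself ranged from 109 to 120 at P5 and from 122 to 135 at P12. These shares did not overlap between the ages, and no test was made of them.

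**Figure D4:**
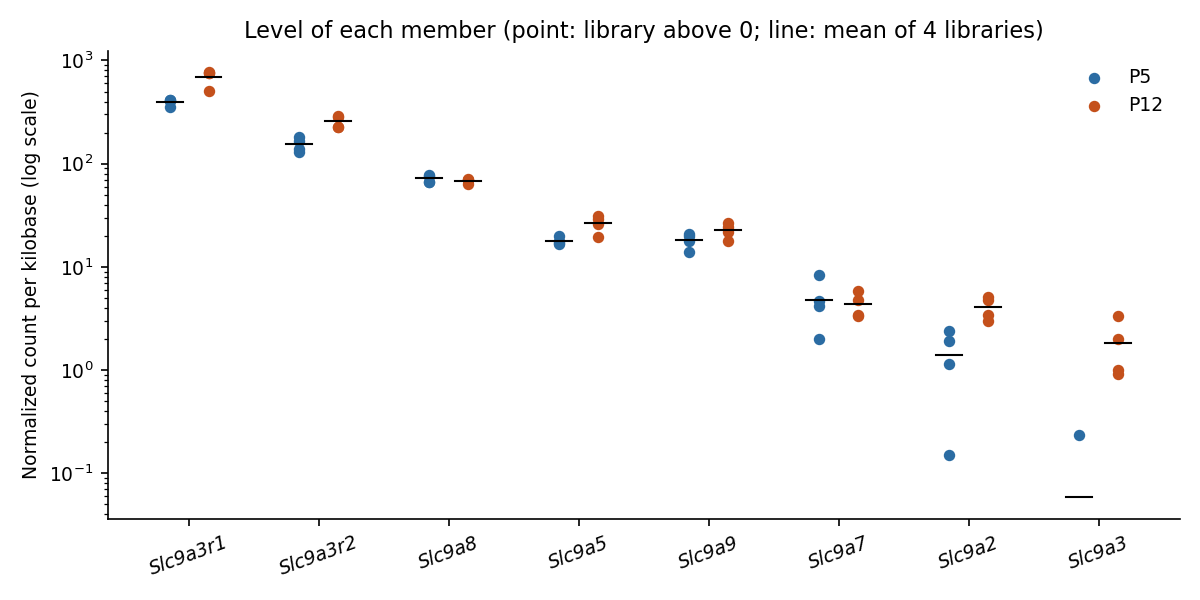
Normalized count per kilobase of gene length on a log axis for each member, in order of the P12 mean, with P5 in blue and P12 in orange. Points are libraries above 0 and lines are means of 4 libraries. The levels run from 699 at P12 for Slc9a3r1 to 1.82 for Slc9a3, and Slc9a8 lies at 71.8 and 68.5.

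Slc9b2, a more distant exchanger of the family, had a log2 fold change of 0.42 and did not pass the test (adjusted p = 0.075 from edgeR), and neither did Slc9b1 (0.07, adjusted p = 0.91). Slc9a4 had at most 2 counts in any library, and Slc9c1 had 0.

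**Figure D5:**
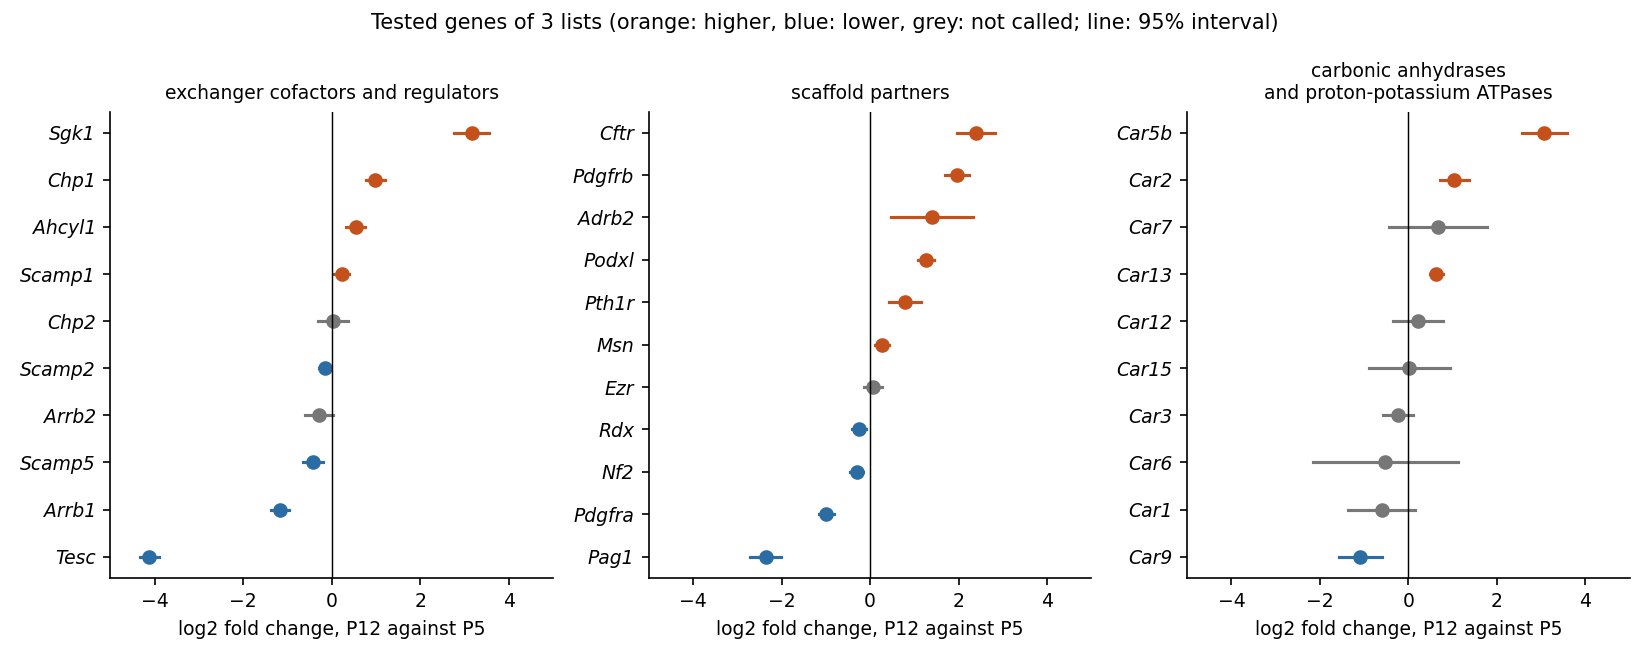
Log2 fold changes between P12 and P5, with 95% intervals from edgeR, for the tested genes of 3 lists around the exchangers, orange where higher, blue where lower and grey where not called. Sgk1 (3.16), Car5b (3.07) and Cftr (2.39) lie farthest to the right and Tesc (-4.12) farthest to the left.

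Of 10 listed cofactors and regulators, all tested, 4 were higher and 4 lower at P12, with a median log2 fold change of -0.06. Among all genes tested, 57.2% were called, 28.8% higher and 28.4% lower. Calcineurin-homologous proteins, which bind exchangers of the plasma membrane and are needed for their activity, diverged. Chp1 rose from 2228 ± 170 (SD, n = 4) to 4414 ± 602 (SD, n = 4) normalized counts, or by 0.99 on the log2 scale with a standard error of 0.10 and an adjusted p of 7.2e-06 (edgeR). Tesc, which encodes the related tescalcin, fell from 1547 ± 160 (SD, n = 4) to 89.1 ± 6.18 (SD, n = 4), which was -4.12 on the log2 scale with a standard error of 0.10 and an adjusted p of 2.1e-10 (edgeR). Chp2 was at 673 ± 163 (SD, n = 4) and 691 ± 68.7 (SD, n = 4) and did not pass the test (adjusted p = 0.84). Sgk1, a kinase that activates NHE3 together with NHERF2 in other epithelia, rose from 1305 ± 107 (SD, n = 4) to 11679 ± 3398 (SD, n = 4), or by 3.16 on the log2 scale (adjusted p = 9.9e-08). Ahcyl1, which encodes IRBIT, also rose (0.54, adjusted p = 6.0e-04). Arrb1, a beta-arrestin, was lower at P12 (-1.17, adjusted p = 8.7e-07).

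Of 13 listed partners of the scaffolds, 11 were tested, 6 were higher and 4 lower at P12, with a median log2 fold change of 0.27. Among all genes tested, 28.8% were higher and 28.4% lower. Cftr, an anion channel that binds NHERF1 through its PDZ motif, rose by 2.39 on the log2 scale (standard error 0.20, adjusted p = 1.6e-06 from edgeR), and its 4949 normalized counts in P12 replicate 4 were the highest of all libraries. Podxl, which encodes podocalyxin, a partner of NHERF2 in podocytes and also a gene of endothelium, rose by 1.26 (adjusted p = 1.7e-07). Of the ERM proteins, which link the scaffolds to actin, Msn rose by 0.27 (adjusted p = 0.0057), Rdx was lower at P12 (-0.25, adjusted p = 0.013), and Ezr did not pass the test (0.07, adjusted p = 0.53). Pag1, an adaptor of lipid rafts, fell by 2.36 (adjusted p = 4.0e-07). The other scaffolds with NHERF-type PDZ domains, Pdzk1 and Pdzd3, were too low to test, with at most 7.41 normalized counts in any library.

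Of 16 listed carbonic anhydrases and proton-potassium ATPase genes, 10 were tested, 3 were higher and 1 lower at P12, with a median log2 fold change of 0.12. These 4 calls among 10 genes are a lower share than the 57.2% called among all genes tested. Carbonic anhydrases interconvert carbon dioxide and bicarbonate with release of a proton. The cytosolic Car2 rose by 1.03 (standard error 0.15, adjusted p = 1.2e-04 from edgeR) and Car13 by 0.63 (adjusted p = 1.4e-05), and the mitochondrial Car5b rose by 3.07 (adjusted p = 8.6e-07). Car9, a membrane form induced by hypoxia, was lower at P12 (-1.08, adjusted p = 0.0013). The genes of the proton-potassium ATPases, Atp4a, Atp4b and Atp12a, were too low to test.

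The genes whose pattern over the 8 libraries was most like that of a member were found by the root mean square difference of centred log2 normalized counts, among 11340 tested genes with a mean normalized count of at least 100. For Slc9a3r1 they were Srgap3 (0.09) and Sox6 (0.09), and for Slc9a3r2 they were Arhgef15 (0.07) and Arap3 (0.08). For Slc9a5 they were Bace1 (0.09) and Capn5 (0.10), and for Slc9a8 they were Reps1 (0.03) and Crkl (0.03). Slc9a9 was closest to Lin52 (0.07) and Dck (0.08). The rarer Slc9a2 and Slc9a7 had no close match, with Crabp1 at 0.43 and Slc26a1 at 0.51 for Slc9a2, and Aoc2 at 0.31 and Sema6b at 0.34 for Slc9a7. These differences are on the log2 scale, are over libraries that share age and pool, and carry no test.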

How the data were processed

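RNA-seq libraries came from 4 pools of first molar enamel organs at P5 and 4 at P12. The authors deposited whole-number read counts per gene, not normalized, with gene coordinates and lengths. The aligner, counting program and use of strand are not given in the sources used here. The submitters' processing notes name CASAVA and the build mm39, but of the 54495 gene identifiers found in GENCODE M21 (GRCm38), 53585 had the same coordinates there, so GRCm38 is the build given. The deposited length, used for levels per kilobase, differed from the GENCODE exons for Slc9a3r2 (2257 against 2646 bases).

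Counts were fitted with edgeR 4.0.16 in R 4.3.3 (filterByExpr with a minimum count of 10, TMM, glmQLFit and glmQLFTest, no covariate), adjusted by Benjamini-Hochberg over 16440 genes, with a threshold of 0.05. The study's methods name DESeq2, used here as an alternative (1.42.0), as was limma-voom (3.58.1). Standard errors are the log2 fold change divided by the square root of the F statistic. Fits were tested on simulated data in which few genes changed. In the real data 57.2% of genes tested were called, so the simulation does not check scaling or calls under so broad a change. Exact permutation tests (scipy 1.17.1) covered 70 splits with a pseudocount of 1. Marker and pathway lists, members and tests were chosen with earlier results of these data known. Named genes are all members, genes of the lists, and the 2 genes most like each tested member. Some genes of the family are not reported here.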

Additional observations from a re-analysis of the deposited data

Results flagged for a closer look

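Among 18 sets of 4 libraries (8 members and the scaffold ratio, at either age), 2 held a value set far apart from its 3 neighbours, and chance alone gives about 0.9 (1 in 20). Slc9a3r1 in P12 replicate 4 was at 983 normalized counts, against 1443 to 1488 in the other P12 libraries. This library was also the lowest at P12 for 4 of the 8 members, and for 44.3% of the 4735 genes that were higher at P12. The other was Slc9a3 in P5 replicate 1, at 1.29 normalized counts against 0 in the other P5 libraries, which is a single read and below the floor of 3 counts.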

How the results depend on the processing

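The rises of Slc9a3r1, Slc9a3r2 and Slc9a5 were called in each of their 18 alternative fits. With any 1 library omitted, the log2 fold changes were 0.76 to 0.94 for Slc9a3r1, 0.67 to 0.82 for Slc9a3r2, 0.47 to 0.68 for Slc9a5, 1.16 to 1.94 for Slc9a2, 0.21 to 0.43 for Slc9a9, -0.11 to -0.03 for Slc9a8, -0.41 to 0.25 for Slc9a7 and -0.046 to 0.16 for the scaffold ratio, which turned to -0.046 without P12 replicate 3 and to -0.012 without P5 replicate 5. Slc9a2 lost its call without P5 replicate 4 (1.48, adjusted p = 0.051), where fewer samples were fitted, and had an adjusted p of 0.0046 to 0.051 over its 17 alternatives. Without both P5 replicate 5 and P12 replicate 4 the same 4 members were called, and Slc9a7 was at 0.34. Total count scaling turned Slc9a8 to 0.31 and Slc9a7 to 0.21 and called Slc9a9 at 0.70, with the median of all genes shifted by 0.37. Slc9a7 was not called in any fit, and fits without P5 replicate 5 gave it a positive sign. It was at 0.25 without that library, at 0.40 with the replicate block, fitted to the 6 libraries that share a number, and at 0.36 over the same 6 without the block. The block changed no call of a member. Deviations from the group means correlated by -0.04 to 0.04 for the 3 same-numbered pairs and by -0.07 to 0.06 for the 13 others. These values gave no sign that replicate numbers pair the libraries, but 3 pairs are too few to exclude it. Of the 4 members called, 2 had an adjusted p under 0.01 and 1 changed by 1 or more on the log2 scale (Slc9a2). Without the filter and in DESeq2, where Slc9a3 could be tested, 5 members were called, and under total count scaling 6. Over all genes fitted, 10016 of 31604 were called without the filter and 9985 of 31604 in DESeq2. Total count scaling called 11215 of 16440 genes, 8885 of them higher at P12. Slc9a2 and Slc9a7 did not pass a filter of 10 counts in every library. Without division by gene length Slc9a8 ranked 2 and Slc9a3r2 ranked 3 at both ages, and Slc9a2 ranked 6 and Slc9a7 ranked 7 at P12.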
